A study of Homo sapiens with 6 samples.

Results

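DNAJ proteins are the J-domain co-chaperones of HSP70, and here they were followed in MUG-Chor1, a line grown from a single chordoma, the bone tumor that resembles the notochord. They were taken as the genes with a platform symbol that starts with DNAJA, DNAJB or DNAJC and a number, which gave 45 genes of 18404 measured, 5 of class A, 13 of class B and 27 of class C. For each gene the probe set with the highest mean over all arrays was used, among probe sets that name a single gene. Of 47 such DNAJ probe sets 45 were thus used, and 3 more that name several genes were set aside. *DNAJA1P5* and *DNAJB3* are among the 45 and are transcribed pseudogenes in RefSeq.

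The study compared large physaliferous cells, which are filled with vacuoles, with small cells without vacuoles from the same culture conditions. After trypsin detachment, 20 cells of 1 phenotype were picked under the microscope for each pool, and their RNA was amplified and hybridized to 1 Affymetrix Human Gene 1.0 ST array per pool. Arrays of 3 large pools (numbers 2, 3 and 4) and of 3 small pools (numbers 5, 6 and 7) were analyzed; the labels name no drug treatment and no genetic change for either phenotype. No source used here states that pools were taken from separate cultures, and the p-values therefore cover only the variation among these 6 pools. Values are log2 expression, so a difference of 1 is a doubling, and the expression floor used below is log2(100), or 6.64. All 6 chordoma and notochord markers that were measured were above this floor in every pool. Of 9 fibroblast markers 4 were above it in every pool. The summed level of all 9 was 59.5 to 60.4 in large and 61.5 to 63.9 in small pools, a shift whose part in the results was not tested. Among them *LUM* was at 7.22, 6.30 and 8.88 in small pools 5, 6 and 7. It differed by -1.11, large minus small, while the median difference of the 9 was -0.12, beside -0.11 over all genes. Of 6 leukocyte markers 1 (*CD68*) was above the floor in every pool, and of 5 endothelial markers 1 (*KDR*). Summed endothelial levels were 30.0 to 30.9 in large and 30.8 to 31.2 in small pools. Summed leukocyte levels were 36.8 to 38.3 and 36.9 to 38.2.

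HSP70 holds unfolded proteins in an ATP-driven cycle, and a J protein brings the client and triggers the ATP hydrolysis that locks it in place. Class A members share the full layout of bacterial DnaJ, class B members lack its zinc finger region, and class C members keep little more than the J domain and are tied to particular sites such as the endoplasmic reticulum (ER), mitochondria, coated vesicles or ribosomes. Several ER members are induced by the unfolded protein response.

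Large cells had higher values of *DNAJB6*, *DNAJB4*, *DNAJB9* and *DNAJA2* and lower values of *DNAJC22* and *DNAJB8* than small cells, in every pool against every pool, *DNAJB6* on its brighter probe set only. None of these differences passed the adjustment over all genes. Calling a gene required an adjusted p under 0.05 in limma and a log2 fold change beyond 1 in either direction. By these limits 0 of 45 members and 0 of 18404 genes (0%) were called (2 of 2062 genes, neither a member, after a filter on the floor and the interquartile range), and the lowest adjusted p among members was 0.32 against 0.14 over all genes. An unadjusted p under 0.05 was found for 6 members (13.3%), beside 14.8% of all genes. Of these members 4 were higher in large cells (8.89%, beside 4.33% of all genes) and 2 were lower (4.44%, beside 10.5%). The pools of the phenotypes did not overlap for 10 members (22.2%, beside 27% of all genes), with 6 higher in large cells (beside 5.48%) and 4 lower (beside 21.6%). The shares of members thus lay near or below those of all genes, except for members higher in large cells. In the brightest of 5 equal classes of signal level, 3 of 18 members were higher at that p (16.7%, beside 9.75% of all genes there). Non-overlapping pools, higher in large cells, were found there for 3 of 18 members and 467 of 3681 genes. *DNAJB6* is in both higher counts over all members and in both counts of the brightest class. *DNAJC9* is in the non-overlapping count over all members. Each of these genes rests on a probe set of uncertain assignment.

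The direction of members differed from that of the table as a whole. The log2 fold change, large minus small, was above 0 for 27 of 45 members, beside 33.6% of all genes, and below 0 for 18, beside 66.4% of all genes. The median was 0.04 for members and -0.11 for all genes. Among the 28 members with a mean above the floor 22 were above 0 (78.6%, beside 38.9% of all such genes), whereas 5 of the 17 members below it were (29.4%, beside 26.2%). Signal level moved with this: of the 18 members in the brightest of 5 equal classes of probe sets 16 were above 0, beside 62% of all genes there, and the medians were 0.35 and 0.08. After the trend with signal level had been removed, which moved the median of all genes from -0.11 to 0.00, 26 of 45 members and 12 of those 18 were above 0, beside 49.8% of all genes and 54.7% of the brightest class. Without small pool 6 the count was 21 of 45 and the median of members -0.01, beside 32.8% of all genes and a median of -0.11. With 1 pool left out the sign turned for 15 members and the value moved by over 1.5 times for 34, to which none of the 6 with an unadjusted p under 0.05 belonged. Fewer transcripts per cell and fewer cells with the transcript cannot be told apart in pooled cells.

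**Figure D1:**
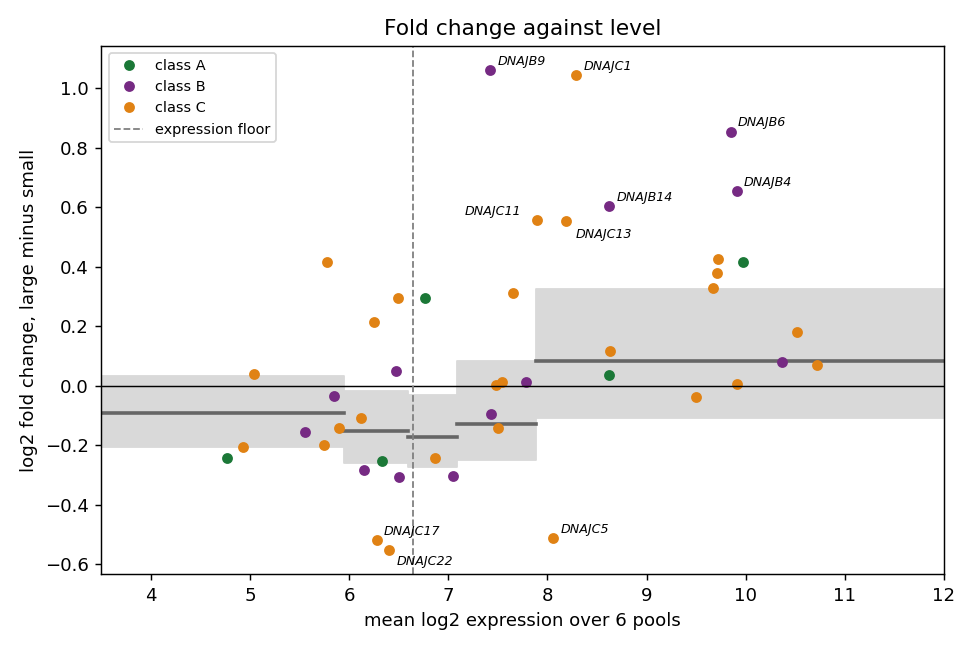
Log2 fold change (large minus small) of the 45 DNAJ members against mean log2 expression over 6 pools; points are genes colored by class, grey lines and boxes are the median and quartiles of all genes in 5 classes of signal level, and a dashed line marks the floor. Of 18 members in the brightest class 16 lie above 0, and 12 of 17 members below the floor lie under 0.

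Class A holds the general cytosolic co-chaperones and the mitochondrial *DNAJA3*. *DNAJA2*, which supports HSP70 refolding in the cytosol, measured 10.13, 10.08 and 10.34 in large pools and 9.98, 9.81 and 9.51 in small pools. Every large pool lay above every small pool, with a log2 fold change of 0.42 (95% confidence interval 0.05 to 0.78) and, from limma, adjusted p = 0.33. *DNAJA1*, the farnesylated partner of HSC70, measured 8.55, 8.77 and 8.61 in large and 8.67, 8.43 and 8.71 in small pools. These pools overlapped, and the difference of 0.04 (-0.26 to 0.33) turned to -0.02 after quantile normalization and after removal of the level trend. *DNAJA3*, or TID1, of the mitochondrial matrix, measured 7.25, 6.55 and 6.93 in large and 6.61, 6.53 and 6.71 in small pools. Large pools spread more widely than small pools here, and the difference of 0.29 had an interval of -0.16 to 0.75 (0.12 without large pool 2, 0.47 without large pool 3). *DNAJA4* stayed below the floor on every array, at 6.37, 6.23 and 6.01 in large and 6.35, 6.61 and 6.42 in small pools. The pseudogene *DNAJA1P5* did so too, at 4.63, 4.63 and 4.67 in large and 5.17, 4.53 and 4.96 in small pools. Neither set of pools separated, and the log2 fold changes were -0.25 and -0.24. The median over the 5 class A genes was 0.04. An unadjusted p under 0.05 was found for 1 (20%, beside 14.8% of all genes), which was higher in large cells.

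**Figure D2:**
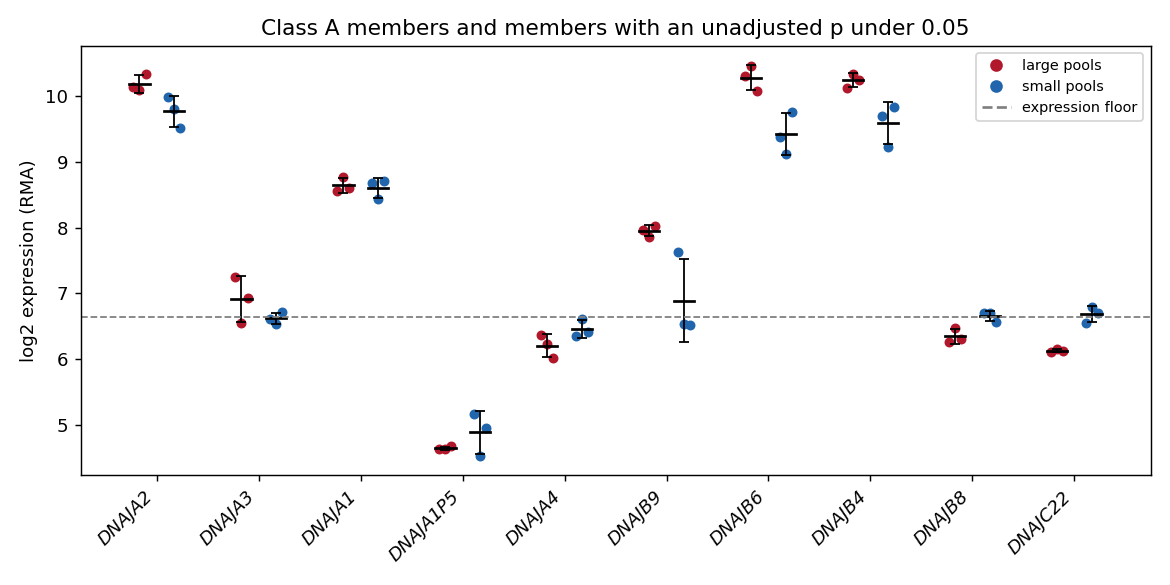
Log2 expression of each pool for class A members and for members with an unadjusted p under 0.05; points are pools, bars are the mean and SD of 3 pools, and a dashed line marks the floor. Large and small pools separate for *DNAJA2*, *DNAJB9*, *DNAJB6*, *DNAJB4*, *DNAJB8* and *DNAJC22*, of which *DNAJB9*, *DNAJB8* and *DNAJC22* straddle the floor.

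Among the cytosolic and nuclear class B members, *DNAJB4* and the brighter probe set of *DNAJB6* had higher values in large cells. *DNAJB6* keeps polyglutamine and other aggregation-prone proteins in solution and binds keratin filaments. It measured 10.30, 10.45 and 10.07 in large and 9.38, 9.12 and 9.76 in small pools. The lowest large pool lay above the highest small pool, and the log2 fold change was 0.85 (SE 0.19, interval 0.38 to 1.32, limma, adjusted p = 0.32), a fold of 1.81. The other *DNAJB6* probe set gave 8.31, 8.05 and 8.49 against 7.80, 8.27 and 7.83, which overlap, with a difference of 0.32. That probe set sits on the platform among probe sets of chromosome 7, where *DNAJB6* lies, whereas the brighter one has no common chromosome among its neighbors, so its assignment is uncertain. The mean of both probe sets differed by 0.58. *DNAJB4*, a homolog of *DNAJB1* found in muscle and epithelium, measured 10.13, 10.34 and 10.24 in large and 9.70, 9.22 and 9.82 in small pools. Again no small pool reached a large one, with a log2 fold change of 0.65 (0.22 to 1.09, limma, adjusted p = 0.32). *DNAJB1*, the main stress-induced J protein, averaged 7.79 ± 0.23 in large and 7.78 ± 0.53 in small pools (SD, n = 3). Its difference of 0.01 had an interval of -0.68 to 0.70, since small pool 6 lay at 7.17 and the other small pools at 8.04 and 8.14. Over the 5 genes of this role the median was 0.01.

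Stress-induced members are switched on through heat shock elements, runs of inverted GAA units, so the 300 bases around the RefSeq start of each gene (GRCh38.p14) were searched on both strands for GAA, NN, TTC, NN and GAA in a row, where N is any base. Of 39 members with an entry 2 held it (5.13%), beside 0.487% of 27305 promoters. They are printed because they are the only members with a match, with the matched letters in capitals. The window of *DNAJB1*, the main stress-induced J protein, held 0 matches, so the search does not pick out every stress-induced member. The *DNAJB6* window is chr7:157336754-157337053 on the plus strand, with the match from base 120, and the *DNAJA1* window is chr9:33025023-33025322 on the plus strand, with the match from base 254.
DNAJB6: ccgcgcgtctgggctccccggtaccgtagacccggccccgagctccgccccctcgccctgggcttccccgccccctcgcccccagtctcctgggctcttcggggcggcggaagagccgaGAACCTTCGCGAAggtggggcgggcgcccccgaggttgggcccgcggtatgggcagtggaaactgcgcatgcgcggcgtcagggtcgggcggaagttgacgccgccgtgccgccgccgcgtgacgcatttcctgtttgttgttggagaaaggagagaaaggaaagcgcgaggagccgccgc
DNAJA1: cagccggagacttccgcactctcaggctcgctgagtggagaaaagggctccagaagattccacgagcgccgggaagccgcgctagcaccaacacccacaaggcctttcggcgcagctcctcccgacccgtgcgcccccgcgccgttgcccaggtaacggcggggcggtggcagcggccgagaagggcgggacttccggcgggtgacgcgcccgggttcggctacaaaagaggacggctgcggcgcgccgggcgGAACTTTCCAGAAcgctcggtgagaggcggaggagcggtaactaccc
*DNAJB6* was higher in large cells on its brighter probe set and *DNAJA1* differed by 0.04, so the genes that share the match differed in their values. The shorter GAANNTTC, which lies within the longer motif, was found in 3 of 39 (7.69%, beside 6.87% of all promoters). The ER stress element, CCAAT and CCACG with 9 bases of any kind between, was found in 0 of 39, beside 0.0806% of all, and its CCAAT part alone in 17 of 39 (43.6%, beside 35.7%). A match is a description of the letters only.

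The 4 class B members known from germ cells and cilia had negative differences as deposited, with a median of -0.22, although that of *DNAJB7* (-0.03) was 0.05 after centring and 0.09 after removal of the level trend. *DNAJB8*, a testis member that suppresses aggregation, measured 6.26, 6.47 and 6.31 in large and 6.70, 6.71 and 6.56 in small pools. Every large pool lay below every small pool, by 0.31 on average (log2 fold change -0.31, interval -0.56 to -0.05, limma, adjusted p = 0.32), but only 2 of 3 small pools and 0 large pools passed the floor. The difference was -0.22 after quantile normalization or centring and -0.15 after removal of the level trend, none of these with an unadjusted p under 0.05. *DNAJB13*, of sperm tails and radial spokes, was below the floor on every array and differed by -0.28 (-0.68 to 0.11). *DNAJB3* and *DNAJB7* were below it too. Probe sets below the floor were lower in large cells for 73.8% of all genes. Over all 13 class B genes the median was 0.01, and 4 (30.8%, beside 14.8% of all genes) had an unadjusted p under 0.05, 3 of them higher in large cells and 1 lower.

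Of the members of the ER 9 of 10 had a log2 fold change above 0, with a median of 0.27, beside 33.6% of all genes. However, 6 of the 10 lay in the brightest class, where 62% of all genes were above 0. The means of 2 others, *DNAJB12* (difference 0.05) and *DNAJC18* (0.21), lay below the floor. With 1 pool left out the sign turned for *DNAJB11*, *DNAJB12*, *DNAJC14* (0.12) and *DNAJC16*. *DNAJB9*, or ERdj4, the ER partner of HSPA5 that represses IRE1 and carries misfolded proteins to degradation, measured 7.97, 7.86 and 8.03 in large and 7.62, 6.53 and 6.52 in small pools. Large pools were close together and all above small pools, of which only pool 5 was above the floor. The log2 fold change was 1.06 (SE 0.31, interval 0.31 to 1.81, limma, adjusted p = 0.32), a fold of 2.09. *DNAJC1*, or ERdj1, a membrane member that binds ribosomes, measured 8.76, 9.25 and 8.42 in large and 6.75, 8.08 and 8.48 in small pools. Small pool 7 overlapped the large pools. The difference of 1.04 (-0.11 to 2.19) was 0.53 without small pool 5 and 1.40 without small pool 7. Among the others, *DNAJB14*, a membrane member in ER-associated degradation, differed by 0.60 (-0.33 to 1.54). The difference was 0.24 without small pool 5 and 0.83 without small pool 6. The disulfide reductase *DNAJC10* differed by 0.42 (-0.57 to 1.42), by 0.17 without large pool 3 and by 0.89 without large pool 4. *DNAJC3*, the inhibitor p58IPK of the unfolded protein response, differed by 0.33 (-0.06 to 0.72). *DNAJB11*, or ERdj3, the soluble HSPA5 partner, differed by 0.08 (-0.47 to 0.63). *DNAJC16* was the member with a negative difference, at -0.14. *SEC63*, the J protein of the ER translocon, carries no DNAJ symbol and measured 10.94, 11.00 and 10.76 in large and 9.46, 10.36 and 9.98 in small pools. Its pools did not overlap, with a log2 fold change of 0.97 (0.40 to 1.53, limma, adjusted p = 0.32). *HSPA5* or BiP, the HSP70 of the ER lumen, averaged 10.50 ± 0.09 in large and 10.28 ± 0.21 in small pools (SD, n = 3), a difference of 0.21 (-0.12 to 0.54). The count of ER members above 0 was 9 after quantile normalization, 9 after centring, 8 after removal of the level trend (beside 49.8% of all genes) and 8 or 9 with any pool left out.

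**Figure D3:**
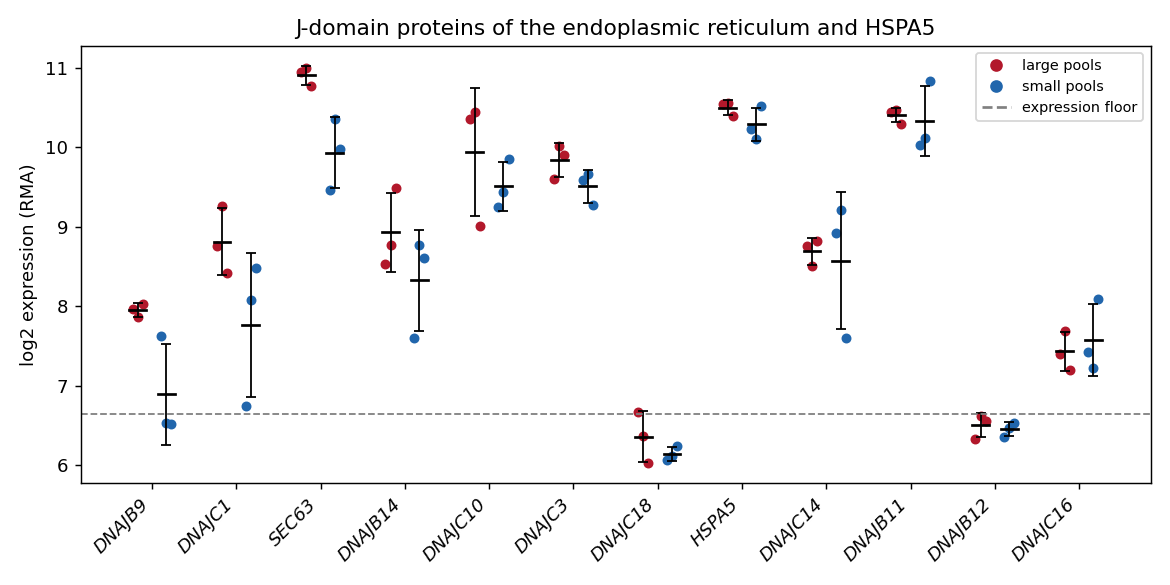
Log2 expression of each pool for the 10 ER members, SEC63 and HSPA5, ordered by log2 fold change; points are pools, bars are the mean and SD of 3 pools, and a dashed line marks the floor. *DNAJB9* and *SEC63* separate the phenotypes, whereas *DNAJC1*, *DNAJB14* and *DNAJC10* overlap, and small pools of *DNAJC1* range from 6.75 to 8.48.

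Of the 6 mitochondrial members 5 were above 0 (83.3%, beside 33.6% of all genes), with a median of 0.10. An unadjusted p under 0.05 was found for 0, beside 14.8% of all genes. *DNAJC4* (0.00) and *DNAJC15* (0.01) were barely above 0, and their sign and that of *DNAJC19* turned with 1 pool left out. *DNAJC30*, which works with the ATP synthase, was the member below 0. Its large pools at 6.81, 6.56 and 6.85 lay below small pools at 6.89, 7.01 and 7.05, a log2 fold change of -0.24 (-0.53 to 0.04). *DNAJC11*, of the inner membrane contact sites, differed by 0.56 (-0.64 to 1.75), with small pools spread from 6.57 to 8.48. The difference was 0.032 without small pool 5 and 0.99 without small pool 7. *DNAJC19*, of the protein import motor, differed by 0.18 on the probe set used (-0.19 without small pool 5, 0.39 without small pool 6). It differed by -0.06 on its other probe set. The probe set used lies among probe sets of chromosome 14, but the gene lies on chromosome 3.

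Vesicle and endosome members diverged. *DNAJC5*, the cysteine string protein of secretory vesicles, measured 7.90, 8.02 and 7.49 in large and 8.01, 8.29 and 8.64 in small pools. *DNAJC13*, or RME-8, of endosomal sorting, measured 8.68, 8.69 and 8.03 in large and 7.63, 8.04 and 8.08 in small pools. In each case a single large pool reached into the range of the small pools, with log2 fold changes of -0.51 (-1.03 to 0.00) and 0.55 (0.00 to 1.11), neither with an unadjusted p under 0.05 (limma, adjusted p = 0.34 for each). The auxilin *DNAJC6*, which uncoats clathrin vesicles, was at 6.82, 6.68 and 6.41 in large and 6.37, 6.35 and 6.31 in small pools, without overlap (difference 0.29, -0.02 to 0.61) but below the floor in all small pools. *GAK*, the other auxilin, differed by -0.27 (-0.70 to 0.16). The median of the 6 vesicle members was -0.15, with 2 above 0 (33.3%, beside 33.6% of all genes).

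In the nucleus, on RNA and on the ribosome the 5 members had a median of 0.00. *DNAJC9*, a histone co-chaperone, was higher in every large pool (7.62, 7.61 and 8.20 against 7.60, 7.41 and 7.49). The log2 fold change of 0.31 (-0.13 to 0.76) was 0.12 without large pool 4 and 0.41 without large pool 3. The *DNAJC9* probe set lies among those of chromosome 20 while the gene lies on chromosome 10, so the assignment is uncertain. *DNAJC17*, a splicing-associated member, differed by -0.52 (-1.38 to 0.34), with only small pool 5 above the floor. The difference was -0.15 without that pool and -0.83 without small pool 7. *DNAJC2*, *DNAJC8* and *DNAJC21*, of the ribosome, the spliceosome and ribosome assembly, differed by -0.04, 0.00 and 0.07, values whose sign changed with the scaling.

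*DNAJC22*, a membrane protein whose fly homolog is needed for clathrin uptake, had the smallest p of the family. It measured 6.11, 6.15 and 6.12 in large and 6.55, 6.78 and 6.71 in small pools. Large pools varied by little and lay below every small pool, with a log2 fold change of -0.55 (SE 0.10, interval -0.80 to -0.31, limma, adjusted p = 0.32). No large pool and 2 of 3 small pools were above the floor, as for *DNAJB8*. The *DNAJC22* difference was -0.48 after quantile normalization, -0.47 after centring and -0.40 after removal of the level trend. Over the alternatives its unadjusted limma p reached 0.19. *DNAJC7*, or TPR2, which links HSP70 with HSP90, differed by 0.38 (-0.70 to 1.46). The difference was -0.01 without small pool 6 and 0.89 without small pool 7. *DNAJC12*, a partner of aromatic amino acid hydroxylases, was below the floor and differed by -0.14 (-0.42 to 0.13). Over all 27 class C genes the median was 0.04, with 17 above 0 (63%, beside 33.6% of all genes). An unadjusted p under 0.05 was found for 1 (3.7%, beside 14.8% of all genes), which was lower in large cells.

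**Figure D4:**
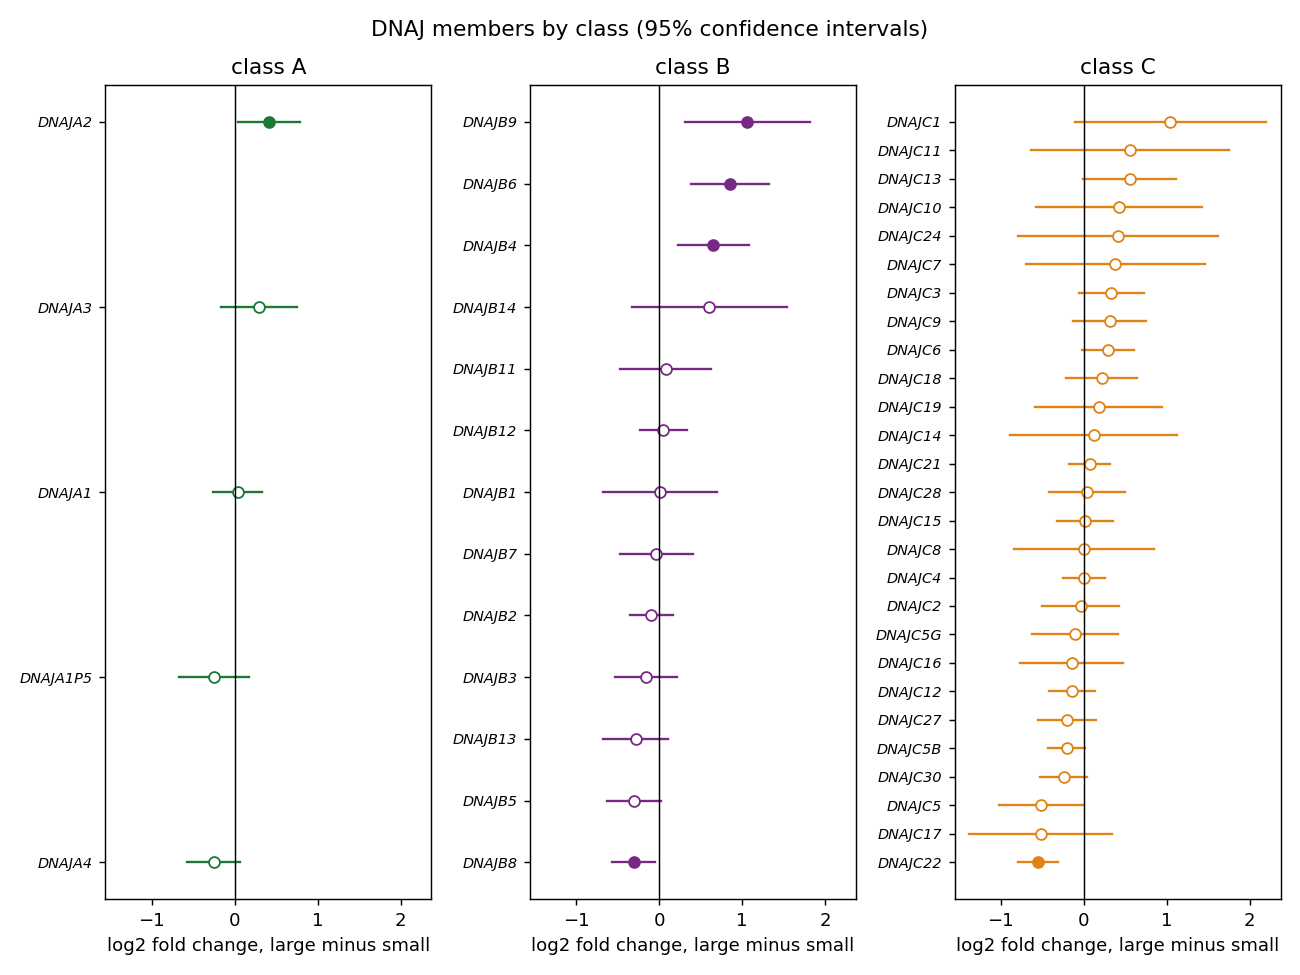
Log2 fold change, large minus small, of each DNAJ gene by class; points are estimates, lines are 95% confidence intervals from limma, and filled points have an unadjusted p under 0.05. The filled points are *DNAJA2* in class A, *DNAJB9*, *DNAJB6*, *DNAJB4* and *DNAJB8* in class B and *DNAJC22* in class C, and intervals are widest for *DNAJC1*, *DNAJC24* and *DNAJC11*.

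Small pools spread widely for some genes. For 11 members (24.4%, beside 11.7% of all genes) the SD among small pools exceeded 0.5, and for 2 members (*DNAJC10* and *DNAJC24*, beside 8.8% of all genes) that among large pools did. In the brightest class the share was 7 of 18 members (38.9%), beside 25.7% of all genes. Pool 5 was the lowest small pool for *DNAJC1*, *DNAJC11*, *DNAJB14* and *DNAJC19*, but the highest for *DNAJB9*, *DNAJC17* and *DNAJC24*. Pool 6 was the lowest for *DNAJB1*, *DNAJC7*, *DNAJC8* and *DNAJC24*, and pool 7 for *DNAJC14*, *DNAJB9* and *DNAJC17*. *DNAJC7* ranged from 8.74 in small pool 6 to 10.54 in small pool 7, while large pools lay between 9.74 and 10.00. *DNAJC14* ranged from 7.59 in small pool 7 to 9.20 in small pool 6.

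**Figure D5:**
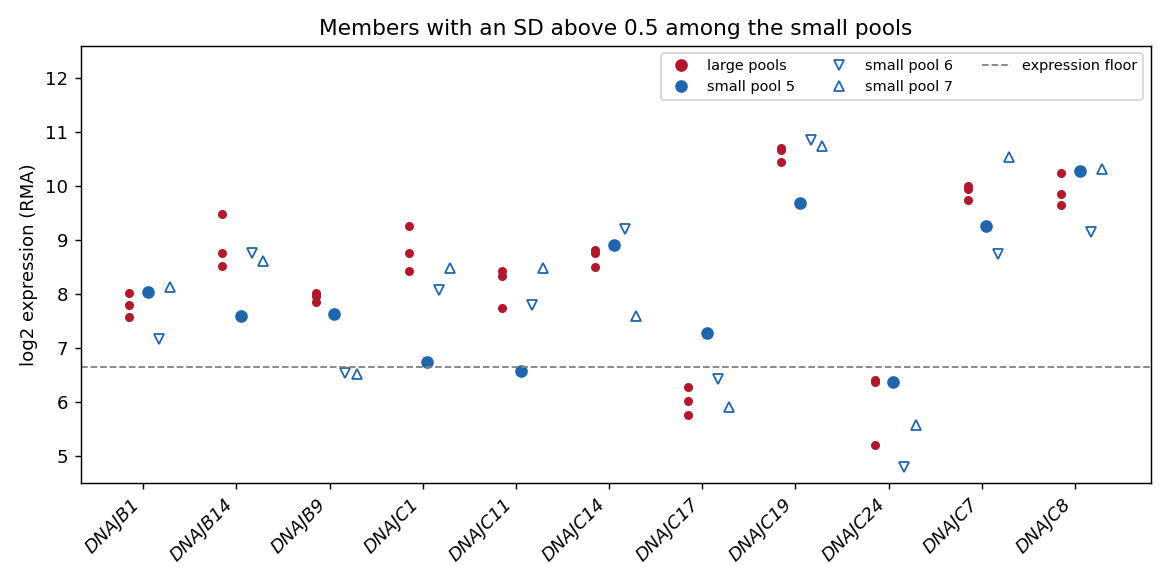
Log2 expression of the 11 members with an SD above 0.5 among small pools; red points are large pools, blue symbols are small pools 5, 6 and 7, and a dashed line marks the floor. The small pool that lies farthest from the others changes from gene to gene.

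The partners of the J proteins were measured in the same fit, and 0 of the 56 listed genes with a single-symbol probe set were called. Listed genes without one have no value here, among them *HSPA1A*, *HSPA1B*, *HSF2*, *FKBP5*, *ST13* and *AHSA1*. An unadjusted p under 0.05 was found for 7 (12.5%, beside 14.8% of all genes), of which 4 were higher in large cells and 3 lower. Of 10 HSP70 genes with a value (12 were listed), which provide the ATPase that J proteins drive, 0 had an unadjusted p under 0.05. Their median was -0.09, without *HSPA1A* and *HSPA1B*. *HSPA9*, the mitochondrial HSP70, measured 10.62, 10.58 and 10.61 in large and 10.57, 9.56 and 10.28 in small pools. Its difference of 0.47 (-0.15 to 1.09) was 0.18 without small pool 6 and 0.68 without small pool 5. The testis form *HSPA2* differed by -0.33 (-0.77 to 0.10), with 0 large and 2 small pools above the floor. That difference was -0.17 without small pool 5 and -0.50 without small pool 6. The 14 nucleotide exchange factors, which release ADP and the client, had a median of -0.03. *BAG2* and *BAG5* of this group differed by 0.47 (0.01 to 0.94) and 0.44 (-0.08 to 0.96). *BAG2*, 1 of the 4 higher genes, was above the floor in 1 large pool and in 0 small pools.

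*FKBP4*, an HSP90 co-chaperone with peptidyl-prolyl isomerase activity, measured 9.47, 9.80 and 9.59 in large and 8.50, 7.71 and 8.25 in small pools. Its pools did not overlap, and the log2 fold change was 1.47 (SE 0.22, interval 0.93 to 2.00, limma, adjusted p = 0.32). *STIP1*, or HOP, which bridges HSP70 and HSP90, differed the other way by -0.59 (-1.10 to -0.09), and the median of 10 HSP90 genes was -0.06. Of 10 chaperonin genes 0 had an unadjusted p under 0.05 (median 0.05), with *CCT7* at -0.40 and *CCT6A* at 0.18. Among 7 small heat shock proteins (median -0.17), *HSPB1* differed by -0.26 (-0.50 to -0.02) and *HSPB9* by -0.35 (-0.70 to 0.01). *HSPB9* was below the floor in every pool. *HSCB*, the J protein of iron-sulfur cluster assembly, measured 7.10, 7.23 and 8.09 in large and 6.59, 6.77 and 6.41 in small pools. Its pools did not overlap either, with a log2 fold change of 0.88 (0.21 to 1.55), but only 1 small pool was above the floor. The heat shock factor *HSF1*, which switches on heat-inducible chaperones, measured 7.70, 7.63 and 7.69 in large and 8.09, 7.99 and 7.91 in small pools. It was lower in every large pool (log2 fold change -0.32, interval -0.55 to -0.09, limma, adjusted p = 0.32), as was *HSF4* (-0.55, -1.10 to 0.00). Pools that do not overlap with lower values in large cells were found for 21.6% of all genes.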

How the data were processed

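The values deposited are log2 intensities summarized per probe set by the authors with robust multi-array averaging (background correction, quantile normalization, median polish), with 1 column per array and 0 columns left unused. Affymetrix Expression Console is named in the submitters' processing notes. Which chip definition file was applied is not given here. Array medians were 6.64 to 6.68 in large and 6.73 to 6.76 in small pools. The number of arrays limits the precision. Of 32321 probe sets, 19158 had a single symbol in the platform annotation, 1388 several and 11775 none; for each of 18404 genes the brightest single-symbol probe set was kept.

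Large minus small was fitted with lmFit and eBayes of limma 3.58.1 in R 4.3.3 with no covariate, and p-values were Benjamini-Hochberg adjusted over all genes. The methods also drop genes without expression or change but give no limits, so every gene was kept here and the filter was an alternative. The script was tested on simulated data. Named genes are members with an unadjusted p under 0.05 or an absolute log2 fold change above 1, class A, and the 2 genes with the smallest p of each role and list. The other ER members, *HSPA5*, *GAK*, *DNAJB1*, *DNAJC2*, *DNAJC4*, *DNAJC6*, *DNAJC7*, *DNAJC8*, *DNAJC21*, *DNAJC11*, *DNAJC15*, *DNAJC19* and the members with wide spread were chosen for naming with values in view. The members, roles and lists were chosen with earlier results of these data known. Promoters and chromosomes came from RefSeq (GRCh38.p14).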

Additional observations from a re-analysis of the deposited data

How the results depend on the processing

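Called members and called genes of the chaperone lists were 0 under each alternative run, whereas 2 of all 2062 genes kept by the filter on the floor and the interquartile range were called, with a lowest adjusted p of 0.041. Over the 32 genes named by the rule adjusted p ranged from 0.14 to 0.97. Of 404 alternative values 400 had the direction reported, but filters and changes to the variance alone leave a fold change as it is. Most of these genes were also named for a small p in the same 6 pools, so the 400 is no measure of robustness. The 4 that turned were those of *DNAJA1*, at -0.018 after quantile normalization, -0.018 after removal of the level trend, -0.028 without large pool 3 and -0.050 without small pool 6, with a range of -0.050 to 0.090 with 1 pool left out. Over all 45 members the sign turned for 17 under another scaling or with 1 pool left out, among them *DNAJB1*, *DNAJB7*, *DNAJB11*, *DNAJC2*, *DNAJC7*, *DNAJC8*, *DNAJC16*, *DNAJC19* and *DNAJC21*.

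Numbers of members higher and lower in large cells at an unadjusted p under 0.05 were 4 and 2 as reported, 7 and 1 after centring, and 1 and 0 after filtering on the floor and the interquartile range, which kept 9 members. The lower count was 1 after removal of the level trend and 4 with array weights. With 1 pool left out the higher count ran from 3 to 7 (7 without large pool 4) and the lower from 1 to 4 (1 without large pool 2, 4 without large pool 3). Over all genes the numbers were 797 and 1934 as reported, 834 and 1086 after quantile normalization, 1207 and 718 after centring and 1130 and 462 after removal of the level trend. In the chaperone lists the higher count ran from 3 to 7 (7 without small pool 5), and the lower from 1 to 5 (1 without small pool 5, 5 without small pool 7) and was 0 after the combined filter.

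The class A median was 0.29 after the floor filter, and the combined filter left no class A gene. The class B median was 0.079 after the floor filter, 0.96 after the combined filter, 0.095 after centring and -0.069 to 0.135 with 1 pool left out (-0.059 without small pool 5, -0.069 without small pool 6 and 0.135 without small pool 7). The class C median was 0.42 after the combined filter. The combined filter kept genes that varied, whose median over all genes was 0.31. The other causes were not tested. No paired analysis was possible because large pools carry the numbers 2 to 4 and small pools 5 to 7. Signal near the floor limits *DNAJC22*, *DNAJB8* and the other dim members, and the small pools of *DNAJB9*. The same holds for *BAG2*, *HSPA2*, *HSPB9* and the small pools of *HSCB*.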
